A study of Mus musculus with 8 samples.

Results

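The 8 genes described here, Prx, Cldn19, Ncmap, Pmp2, Pmp22, Drp2, Gldn and Egr2, are genes of the myelinating Schwann cell. They were chosen by name, not by a threshold on these data, and are 8 of the 55291 genes in the count table. RNA from the lumbar spinal cord of 8 male C57BL/6J mice carrying the SOD1G93A transgene, a model of amyotrophic lateral sclerosis, was sequenced as polyA libraries. All mice were Cx3cr1 Cre/+, with a tamoxifen-inducible Cre driven from the Cx3cr1 gene, which is active in microglia and other macrophages. All received tamoxifen, at 12 weeks of age by the labels and at a close age, given in days, by the methods of the study. In 4 mice both copies of Ager, the gene for the receptor RAGE, were floxed (Ager fl/fl, hereafter Ager-deleted), and in 4 mice Ager was wild type (Ager +/+, hereafter Cre control). The labels give 120 days of age for every mouse, whereas the study places the tissue of its RNA sequencing at end stage. Each library came from 1 mouse, and mice keep the names of their sample titles.

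Schwann cells make the myelin of peripheral nerve, and oligodendrocytes make the myelin of the brain and spinal cord. The boundary between them lies where the nerve roots enter and leave the cord, so a dissected cord carries peripheral myelin to the extent that stumps of root stay attached to it. Periaxin (Prx) belongs to peripheral myelin, Mog to central myelin, and Mbp to both. The 8 genes serve several tasks in the Schwann cell. Egr2 (Krox20) is the transcription factor that switches on the myelin program. Pmp22, Pmp2 and Ncmap encode proteins of the myelin membrane, Prx (periaxin) and Drp2 form the complex that ties the Schwann cell surface to dystroglycan, Cldn19 is the claudin of Schwann cell tight junctions, and Gldn (gliomedin) gathers sodium channels at the peripheral node of Ranvier.

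Totals ran from 31148047 to 40324897 counts per library, so that 3 counts correspond to 0.0729 to 0.0975 CPM (read counts scaled to a common library size, with TMM factors). Levels are given in CPM throughout unless stated otherwise. From low to high, Ager itself reached 0.889 CPM in E1776, 1.02 in E5248, 1.34 in E5568 and 1.51 in E5231 with the floxed alleles, and 1.53 CPM in E5386, 2.18 in E6578, 2.22 in E5642 and 2.41 in E6732 with the wild-type alleles. The groups did not overlap, and the log2 fold change, always coded Ager-deleted minus Cre control, was -0.81 (SE 0.22; exact permutation p = 0.0286, two-sided, the smallest that 4 against 4 mice allow; adjusted p = 0.252 in the edgeR exact test). Of the labelled tissue, Chat (10.8 to 20.6 CPM) and Slc6a5 (266 to 448 CPM), markers of motor and of glycinergic neurons, were present in every mouse. RNA of other tissues was seen in 3 of the controls. Skeletal muscle genes were high in E5386 and E5642 (mean log2(CPM + 1) of the muscle list 5.83 and 6.26, against 0.911 to 1.62 in the other mice), fat genes in E5386 (Adipoq 8.64 CPM against at most 0.247 elsewhere) and liver genes in E6732 (Alb 452 CPM against at most 0.762 elsewhere). Fits without some of these mice, and with the muscle score as a covariate, are given below, and the part of fat and liver RNA in the results was not tested.

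The first measurement was the level of each gene in each cord. In 7 of the 8 mice all 8 genes were detected, and in the control E5386 each of the 8 was at its lowest, with Pmp2 at 0 counts. Of all 19470 genes tested, 9.45% were lowest in E5386. Genes of central myelin showed no such gap. Mog was at 184.9 CPM in E5386 and at 149 to 188 CPM in the others. Mbp, which belongs to both kinds of myelin, was at 12410 CPM in E5386 and at 11050 to 13680 CPM in the others. E5386 is set apart below because of these values, so its low levels are a description and carry no test. In bulk tissue, fewer cells of a type and less RNA per cell cannot be told apart. Nor do the counts show which cells of the cord the RNA of a gene came from.

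Promoter sequences are shown for Prx and Cldn19, which were close to 0 in E5386. They are also shown for Pmp22, which kept a larger part of its level there. Cldn19 and Pmp22 each have more than 1 start, and only the first is shown for Cldn19. Each run is genomic DNA of GRCm38.p6 on the plus strand, 5′ to 3′, ending just before the RefSeq transcription start or, for Cldn19, before the first annotated exon base, and capitals mark a searched motif.
Prx, chr7:27499074-27499323: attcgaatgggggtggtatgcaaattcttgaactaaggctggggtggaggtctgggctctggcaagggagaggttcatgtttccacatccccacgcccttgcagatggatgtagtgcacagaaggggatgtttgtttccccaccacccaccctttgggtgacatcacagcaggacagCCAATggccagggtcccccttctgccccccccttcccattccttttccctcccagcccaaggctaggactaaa
Cldn19, chr4:119255191-119255413: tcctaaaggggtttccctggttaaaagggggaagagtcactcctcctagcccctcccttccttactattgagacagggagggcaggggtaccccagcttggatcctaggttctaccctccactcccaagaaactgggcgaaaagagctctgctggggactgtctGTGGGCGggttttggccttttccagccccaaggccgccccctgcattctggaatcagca
Pmp22, first start, chr11:63128732-63128981: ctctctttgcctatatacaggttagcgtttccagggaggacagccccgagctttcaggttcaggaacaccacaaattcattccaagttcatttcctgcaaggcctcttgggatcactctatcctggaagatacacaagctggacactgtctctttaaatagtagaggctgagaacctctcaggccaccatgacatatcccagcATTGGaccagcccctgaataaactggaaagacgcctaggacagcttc
Pmp22, second start, chr11:63131207-63131456: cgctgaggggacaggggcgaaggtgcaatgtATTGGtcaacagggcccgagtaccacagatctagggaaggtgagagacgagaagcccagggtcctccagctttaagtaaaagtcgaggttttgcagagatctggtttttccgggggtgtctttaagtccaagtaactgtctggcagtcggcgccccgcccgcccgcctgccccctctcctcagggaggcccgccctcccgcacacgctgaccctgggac

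The motifs searched in the 250 bases before each start, on both strands, were GTGGGCG (the core bound by EGR factors), ACAAAG and ACAATG (SOX cores), TATAAA and CCAAT. RefSeq promoters were found for 6 of the 8 genes, with 15 start sites, and Pmp2 and Drp2 were not matched. The Cldn19 window shown held GTGGGCG at position -86 from the first start, and 7.02% of 32851 promoters held that core. From the second Cldn19 start the same site lies at -114. The Prx window held CCAAT at position -73. For Pmp22 it lay on the reverse strand (ATTGG), at -47 from the first start and at -219 from the second. The windows of the later Pmp22 starts held none of the motifs. CCAAT was also in a window of Ncmap, at -143, and in windows of Egr2, at -121, -122 and -182. These Egr2 positions are the same genomic site, counted from different starts. CCAAT was found in 33.8% of all promoters. A window of Egr2, at the first of its starts, held GTGGGCG at position -31. The SOX cores, held by 16.5% and 10.7% of all promoters in the order named, and the TATAAA motif, held by 12.4%, were not found in the windows of the 6 genes. These matches describe letters only.

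Prx (chromosome 7, 27499324 to 27520214, plus strand) encodes periaxin, a scaffold of the myelinating Schwann cell. Ager-deleted cords held, from low to high, 38.8 CPM in E1776, 48.2 in E5231, 80.7 in E5568 and 139 in E5248. Control cords held 1.285 CPM in E5386, 106 in E6732, 134 in E6578 and 143 in E5642, the first of these from 47 counts (95% exact Poisson interval 0.945 to 1.71 CPM, for counting error only, as for the other intervals). E5386 stood at 1.21% of the median of the other 7 mice, which themselves spanned a 3.69-fold range. Cldn19 (chromosome 4, 119255414 to 119262438, plus strand) had the same order of mice within each group, at lower levels. Ager-deleted cords held 6.88 CPM in E1776, 7.84 in E5231, 15.9 in E5568 and 19.6 in E5248, and control cords 0.274 CPM in E5386, 15.4 in E6732, 23.0 in E6578 and 24.9 in E5642. The 10 counts in E5386 gave 1.72% of the median of the other mice (95% exact Poisson interval 0.131 to 0.503 CPM). Exons of Prx and Cldn19 share 300 and 90 bases with genes on the opposite strand, Gm15541 (0.274 to 0.975 CPM across mice) and Gm12927, and without a stated strand setting reads there cannot be assigned with certainty.

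Ncmap (chromosome 4, 135369576 to 135398227, minus strand), a small membrane protein of noncompact peripheral myelin, kept more in E5386 than these. Its levels were 8.13 CPM in E1776, 9.44 in E5231, 12.8 in E5568 and 16.5 in E5248 after deletion of Ager, and 1.78 CPM in E5386, 14.7 in E6732, 23.4 in E6578 and 30.0 in E5642 among controls. E5386 was at 12.1% of the median of the others. Pmp2 (chromosome 3, 10179851 to 10183929, minus strand), a fatty acid binding protein of peripheral myelin, was low in every cord. Ager-deleted cords held 0.305 CPM in E1776, 0.431 in E5231, 0.564 in E5248 and 0.595 in E5568, and control cords 0 CPM in E5386, 1.24 in E6578, 1.34 in E6732 and 1.79 in E5642. Against the floor of 3 counts, 0.0820 CPM in E5386, the median of the other mice was at least 7.25-fold higher. Of the 1408 exonic bases of Pmp2, 1224 are shared with the annotated gene Gm37389 on the same strand, which had 0 counts in all mice. Reads that fall on both can be dropped in counting, so the level of Pmp2 is uncertain while its comparison between mice holds for the reads that were counted.

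The remaining genes kept a larger part of their level in E5386. Pmp22 (chromosome 11, 63128982 to 63159547, plus strand), a tetraspan protein of compact myelin, reached 196 CPM in E1776, 233 in E5231, 326 in E5568 and 387 in E5248. Control cords held 112 CPM in E5386, 336 in E6732, 429 in E6578 and 455 in E5642, so that E5386 held 33.3% of the median of the others. Gldn (chromosome 9, 54286486 to 54341786, plus strand) was measured after Ager deletion at 6.73 CPM in E1776, 7.36 in E5231, 8.04 in E5568 and 9.96 in E5248. Controls had 4.51 CPM in E5386, 13.7 in E6732, 13.8 in E6578 and 15.7 in E5642, which put E5386 at 45.3% of the median. Egr2 (chromosome 10, 67535475 to 67542188, plus strand) spanned a narrower range, with 7.76 CPM in E5231, 8.05 in E1776, 10.03 in E5568 and 13.9 in E5248 after Ager deletion. Its control levels were 5.09 CPM in E5386, 10.2 in E6732, 11.6 in E6578 and 12.4 in E5642, and E5386 was at 49.7% of the median. Drp2 (chromosome X, 134404551 to 134456573, plus strand), a dystrophin-related protein, kept the most. Ager-deleted cords had 127 CPM in E5231, 128 in E1776, 135 in E5568 and 187 in E5248, control cords had 91.0 CPM in E5386, 153 in E6732, 206 in E6578 and 232 in E5642, and E5386 was at 59.4% of the median. The counts behind the last 4 values in E5386 were 4089, 165, 186 and 3326, so counting error was small beside the gap to the other mice. Thus the share of the usual level that remained in E5386 ran from 1.21% for Prx and 1.72% for Cldn19 to 59.4% for Drp2. Which cells the remaining RNA came from was not tested. Pmp2 has no place in this order, since its 0 counts allow up to 0.101 CPM (95% exact Poisson interval) against a median of 0.594 CPM in the other mice.

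**Figure D1:**
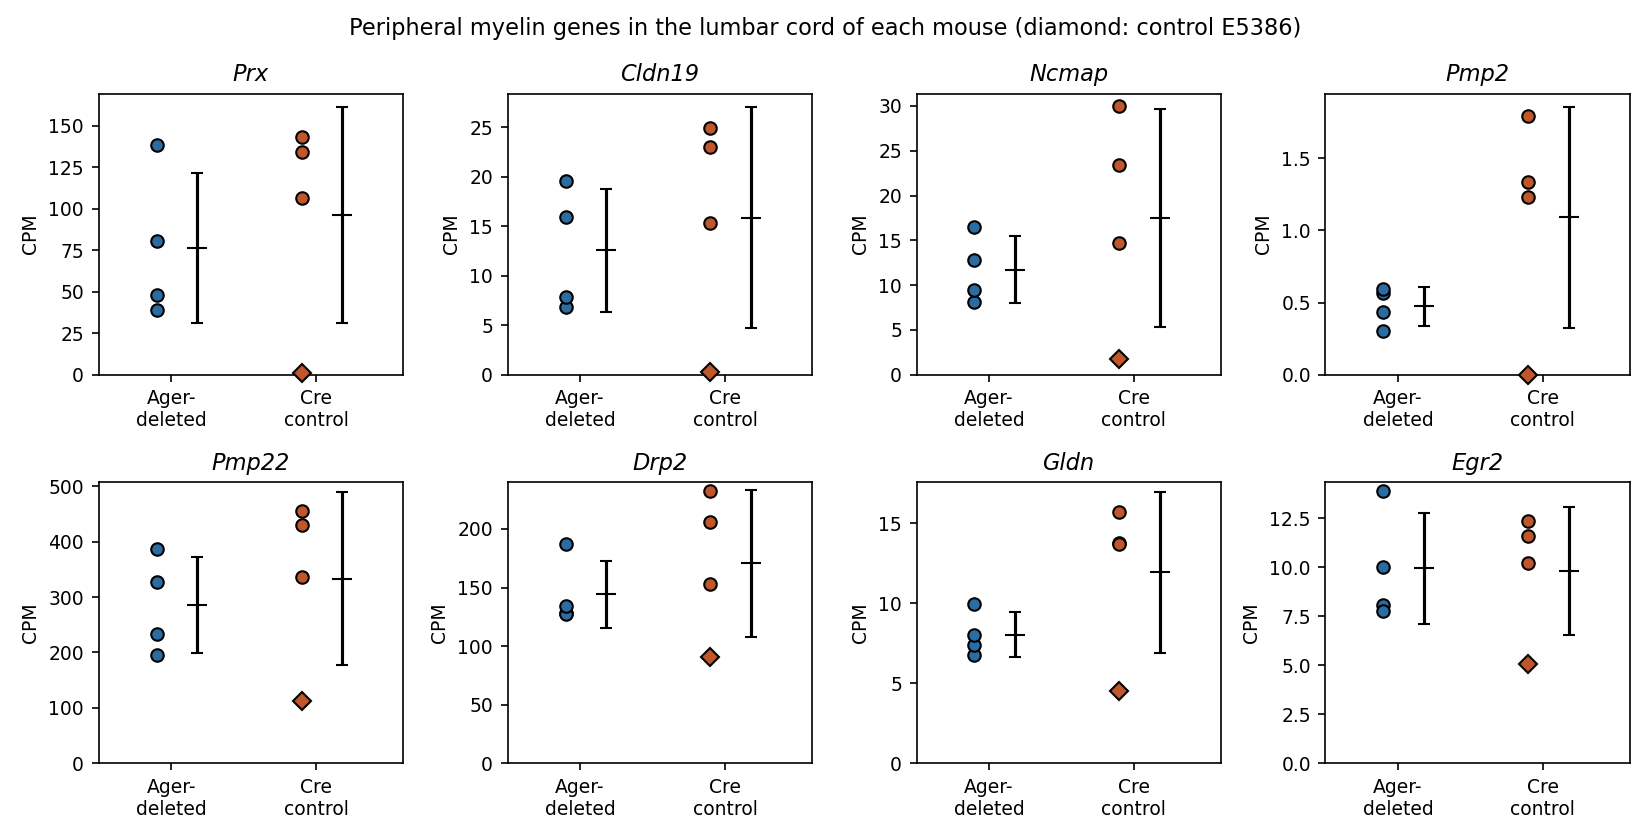
Level of each of the 8 genes (CPM, linear axis from 0) in the 4 Ager-deleted and the 4 Cre control mice. Each point is 1 mouse, the diamond is the control E5386, and the bar beside each group is the mean ± SD. E5386 is the lowest mouse in all 8 panels, near 0 for Prx, Cldn19 and Pmp2, and Gldn and Pmp2 are higher in the other 3 controls than in every Ager-deleted mouse.

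Set per kilobase of exon, which allows genes to be compared, the median level over the 7 mice other than E5386 was 143 CPM per kilobase for Pmp22, 19.1 for Prx, 17.9 for Drp2, 6.60 for Ncmap, 3.73 for Cldn19, 3.01 for Egr2, 2.14 for Gldn and 0.422 for Pmp2, against 1449 for Mbp. Pmp2 has no certain place in this order, because reads on the bases it shares with Gm37389 can be dropped in counting. Over these 7 mice the range of Prx (6.95 to 25.7) overlapped those of Drp2 (14.9 to 27.2) and Ncmap (3.65 to 13.5). The range of Ncmap also overlapped those of Cldn19 (1.62 to 5.85) and Egr2 (2.29 to 4.09), and the ranges of Cldn19, Egr2 and Gldn (1.45 to 3.38) overlapped each other. In E5386 the order changed. There Pmp22 was at 47.5 CPM per kilobase and Drp2 at 10.6, above Egr2 (1.497), Gldn (0.969), Ncmap (0.798), Prx (0.230) and Cldn19 (0.0642), so that Egr2, below Prx in the medians of the other mice, was above it in this cord.

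Among the 7 other mice the genes rose and fell together. The mouse with the highest level was E5642 for 7 of the 8 genes and E5248 for Egr2. The Pearson correlation of each gene with the mean of the remaining 7 genes (as z scores of log2(CPM + 1)) ran from 0.827 for Pmp2 to 0.973 for Pmp22 over these 7 mice, and from 0.886 to 0.990 over all 8 mice. The points share a library and its scaling across genes, and the values over 8 mice rest in part on E5386, which lies apart. As a single score, the mean log2(CPM + 1) of the 8 genes was 4.08 in E1776, 4.22 in E5231, 4.97 in E5248 and 4.62 in E5568, and 2.68 in E5386, 5.35 in E5642, 5.18 in E6578 and 4.88 in E6732. The order within the Ager-deleted group, E1776, E5231, E5568 and E5248 from low to high, was also that of Prx, Cldn19, Ncmap, Pmp22 and Gldn. The same score over 14 oligodendrocyte genes moved within 8.65 to 8.92 across all mice and was highest in E5386.

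Of all genes tested, 22 (0.113%) were lower in E5386 than in every other mouse by at least 1 on the log2(CPM + 1) scale, and Prx, Cldn19 and Ncmap were among them. The other mice had between 0 and 5 such genes each. Ogn (osteoglycin) and Dcn (decorin), matrix proteins of fibroblasts, were at 2.27 and 12.3 CPM in E5386, whereas the other mice held 24.3 to 126 CPM of Ogn and 51.3 to 276 CPM of Dcn. Dhh (desert hedgehog), the Schwann cell signal to the nerve sheath, was at 0.629 CPM against 2.54 to 9.26 CPM. Scn7a, a sodium channel of Schwann cells, was at 4.38 CPM against 11.05 to 32.5 CPM, and Ngfr, the p75 receptor of immature and nonmyelinating Schwann cells, was at 5.42 CPM against 14.6 to 30.2 CPM. Cdh19, a cadherin of the Schwann cell lineage, was not low in E5386, at 38.7 CPM against 35.6 to 61.0 CPM. Of the 9 other Schwann cell markers tested, 6 were lowest in E5386 and 1, Sox2, a gene of immature Schwann cells that other cells of the cord also express, was highest there, at 64.5 CPM against 32.1 to 63.7 CPM. Of 7 genes of the repair Schwann cell, 1 was lowest in E5386.

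**Figure D2:**
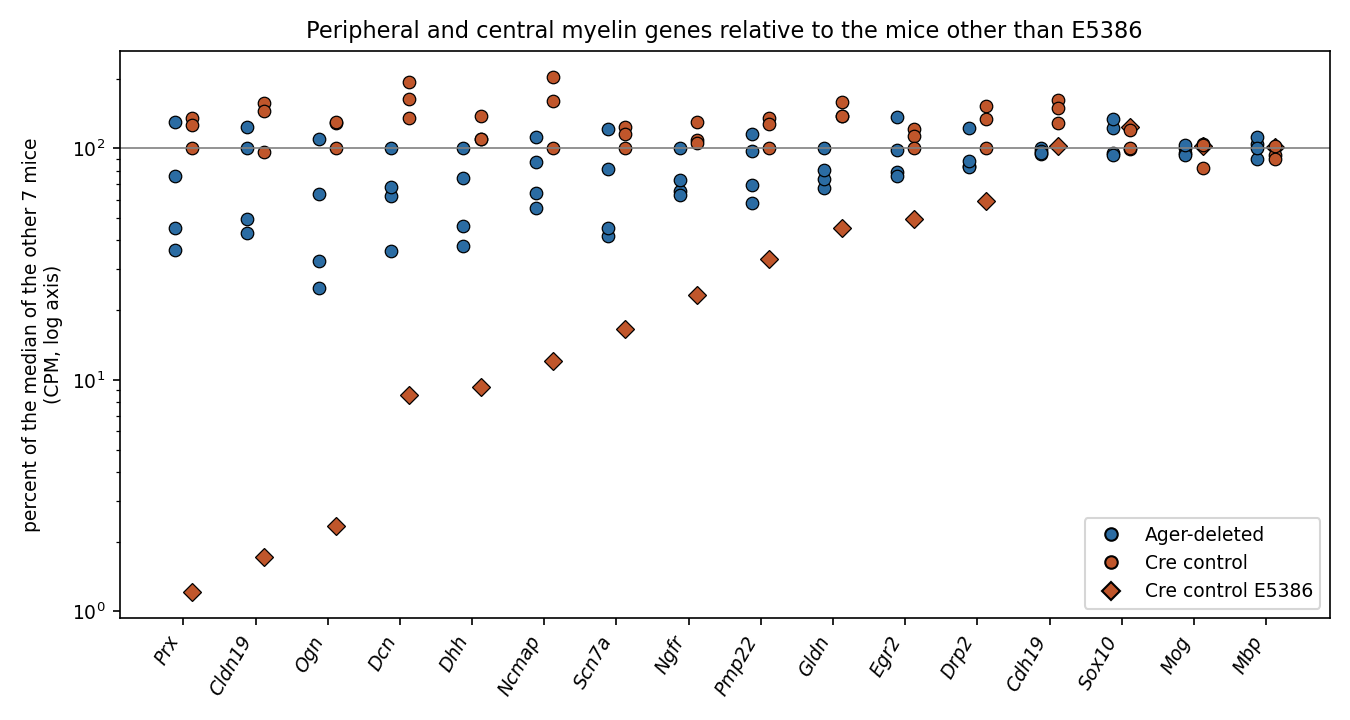
Level of 16 genes in each mouse as a percentage of the median of the 7 mice other than E5386 (log axis), for 7 of the 8 genes and for other Schwann cell, sheath and central myelin genes. Pmp2 is left out because its 0 cannot be drawn on a log axis. The diamonds of E5386 climb from 1.21% for Prx through 12.1% for Ncmap to 59.4% for Drp2, and lie among the other mice for Cdh19, Sox10, Mog and Mbp.

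The design compares Ager-deleted with Cre control cords, and asks here whether Schwann cell genes differed between them. With all 8 mice, none of the 8 genes passed the edgeR exact test (adjusted p = 1 for each, after Benjamini-Hochberg adjustment over all genes), where 0.0719% of all 19470 tested genes did (14 genes, of which 12, or 0.0616% of all, were lower in Ager-deleted cords). The quasi-likelihood test also called 0 of the 8, with 1 gene (0.00514%) called in all. At an unadjusted p under 0.05, 0 of the 8 genes passed in either test, against 4.26% and 6.71% of all genes. The log2 fold change was -1.20 (SE 0.71, from the quasi-likelihood fit as for all SEs here) for Pmp2, -0.57 (SE 0.59) for Ncmap and -0.57 (SE 0.31) for Gldn. It was -0.34 (SE 0.77) for Cldn19, -0.33 (SE 0.85) for Prx, -0.24 (SE 0.25) for Drp2, -0.22 (SE 0.37) for Pmp22 and 0.02 (SE 0.27) for Egr2. Without the control E5642 it was -0.86 for Pmp2, -0.188 for Ncmap, -0.418 for Gldn and -0.0425 for Cldn19. It was then -0.0832 for Prx, -0.0641 for Drp2, -0.0422 for Pmp22 and 0.142 for Egr2. Exact permutation of the 8 mice gave two-sided p-values from 0.257 for Pmp2 to 0.943 for Prx, Ncmap, Cldn19 and Egr2, without adjustment. The difference in mean log2(CPM + 1) that it tests was positive for Prx (0.555), Cldn19 (0.227) and Egr2 (0.045). For Prx and Cldn19 this is the opposite sign to the fold change. It was negative for the remaining genes. None of the 8 separated the groups of 4, as 3.88% of all genes did in either direction. The SE exceeded the size of the fold change for 6 of the 8 genes, all but Pmp2 and Gldn, and the sign for Prx, Pmp2 and Cldn19 differed in limma-voom, which gave 0.77, 0.10 and 0.74. In the edgeR fit with all 8 mice, the median of the 8 fold changes was -0.33, against 0.01 over all genes. There 7 of the 8 were negative, against 48.0% of all genes.

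The control group held both the lowest and the highest mouse for 7 of the 8 genes, Egr2 being highest in the Ager-deleted E5248. For each of the 8 genes E5386 was below every Ager-deleted mouse, and for Pmp2 and Gldn the other 3 controls were above every Ager-deleted mouse. Group means followed from this mixture. Prx averaged 76.6 ± 45.1 CPM (SD, n = 4) in Ager-deleted and 96.3 ± 65.3 CPM (SD, n = 4) in control cords, and 128 ± 19.2 CPM (SD, n = 3) in controls without E5386. Gldn averaged 8.02 ± 1.40 CPM (SD, n = 4) in Ager-deleted and 11.9 ± 5.03 CPM (SD, n = 4) in control cords, and 14.4 ± 1.14 CPM (SD, n = 3) without E5386. The score of the 8 genes averaged 4.47 ± 0.405 (SD, n = 4) in Ager-deleted and 4.52 ± 1.24 (SD, n = 4) in control cords, a difference of -0.0484, and 5.13 ± 0.240 (SD, n = 3) in controls without E5386.

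Without E5386, 2 of the 8 genes were called by the exact test, both lower in Ager-deleted cords, where 0.355% of 19716 genes were called lower. Pmp2 fell by 1.62 on the log2 scale (adjusted p = 0.000188 in the edgeR exact test), with 0.474 ± 0.133 CPM (SD, n = 4) in Ager-deleted and 1.45 ± 0.296 CPM (SD, n = 3) in control cords. Gldn fell by 0.85 (adjusted p = 0.00128 in the edgeR exact test). These are the genes for which the 7 mice did not overlap between groups (exact permutation p = 0.0571 for each, the smallest that 4 against 3 mice allow), as were 4.37% of all genes in the direction of lower Ager-deleted levels. E5386 had been set apart for its low levels of these same genes, so the calls depend on that choice. The quasi-likelihood test on the same 7 mice called neither (adjusted p = 0.254 for each), and called 1 gene in all. At an unadjusted p under 0.05, 7 of the 8 genes, all but Egr2, were lower in the edgeR exact test without E5386, where 4.46% of all genes were. The quasi-likelihood test put 5 of the 8 (Pmp2, Gldn, Ncmap, Drp2 and Pmp22) below that level, where 5.37% of all genes were lower. The other 6 genes were not called, with log2 fold changes of -0.96 for Ncmap (adjusted p = 0.121 in the edgeR exact test), -0.75 for Prx (0.831), -0.75 for Cldn19 (0.778), -0.52 for Pmp22 (0.624), -0.46 for Drp2 (0.489) and -0.20 for Egr2 (1). With E5642 left out instead of E5386, these fold changes were smaller in size, as given above. In the fit without E5386, all 8 fold changes were negative, with a median of -0.75. Among all genes the median was 0.00 and 49.1% were negative. In the same fit the fibroblast and sheath list, described below, had 14 of 14 fold changes negative and a median of -0.86. The skeletal muscle list had 15 of 15 negative and a median of -4.48. E5642, which holds muscle RNA as E5386 does, had the highest level of 7 of the 8 genes. When both were left out, Pmp2 (-1.45) and Gldn (-0.78) were again the genes called, against 67 genes in all.

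**Figure D3:**
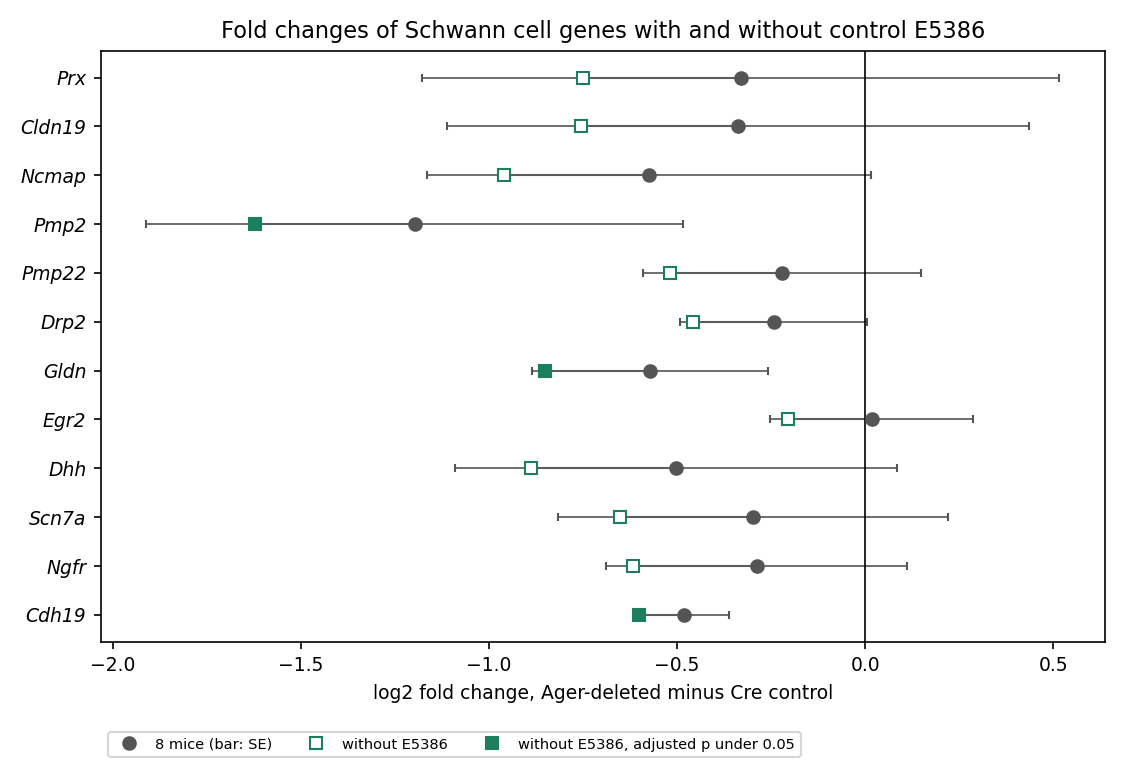
Log2 fold change (Ager-deleted minus Cre control) of the 8 genes and of 4 other Schwann cell genes, with all 8 mice (grey circles, bars are the SE) and without E5386 (squares, filled where the adjusted p of the exact test was under 0.05). Leaving out E5386 moves every fold change shown to a more negative value, and Pmp2, Gldn and Cdh19 carry filled squares.

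The genes around the 8 were read from lists of their partners, each fitted in the same test over all genes. Among other Schwann cell markers, 9 of 10 were tested, 0 were called, all 9 fold changes were negative and the median was -0.29. Cdh19 was at 35.6 to 37.7 CPM in the Ager-deleted mice and, among controls, at 38.7 CPM in E5386, 48.6 in E6732, 56.1 in E6578 and 61.0 in E5642, without overlap (log2 fold change -0.48, SE 0.12, adjusted p = 0.140 in the edgeR exact test, exact permutation p = 0.0286), as were 1.91% of all genes in this direction. Without E5386 the edgeR exact test gave it an adjusted p of 0.000103, and the quasi-likelihood test 0.164. Sox2 had a log2 fold change of -0.34 (SE 0.17) and was not called. Of 7 genes of the repair Schwann cell, the state that follows nerve injury, 0 were called, with a median of -0.27. Runx2 was at 3.53 to 3.99 CPM in Ager-deleted and 3.99 to 6.27 CPM in control cords (adjusted p = 0.856 in the edgeR exact test), with E5386 the lowest control.

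For Egr2, the 17 partners and upstream factors of its network gave 0 calls and a median of -0.05, and 1 of them was lowest in E5386. Sox10, which acts with Egr2 in Schwann cells and also serves oligodendrocytes, was at 154 CPM in E5386 within the range of 116 to 166 CPM of the other mice. For Drp2, the 16 dystroglycan, sarcoglycan, integrin and laminin genes of its complex gave 0 calls and a median of -0.07, and 8 of them were lowest in E5386. These included Lamb1, at 10.4 CPM against 14.6 to 33.8 CPM, and Lama4, at 8.72 CPM against 9.32 to 20.1 CPM, both laminin chains of basement membrane. For Gldn, the 14 genes of the node, among them its axonal partners Nrcam and Nfasc, gave 0 calls and a median of 0.00, and 0 of them were lowest in E5386. Relatives of Pmp22 and Cldn19 (9 of 10 tested) gave 0 calls and a median of -0.08, and relatives of Pmp2 (4 of 8 tested) gave 0 calls and a median of -0.10.

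Of the tissues that lie beside the roots, the fibroblast and sheath list (14 of 15 tested) had 0 calls, 14 negative fold changes and a median of -0.51, with 11 genes lowest in E5386. Its summed level ran from 255 to 545 CPM in Ager-deleted and from 136 to 723 CPM in control cords. Without E5386, Dcn (-1.31, adjusted p = 0.00331) and Cldn1 (-1.04, adjusted p = 0.00847) were called lower in the edgeR exact test and neither in the quasi-likelihood test. The median of the list was then -0.86. In each of these tests, 11 of its 14 genes were lower at an unadjusted p under 0.05. Markers of sensory ganglion neurons (7 of 10 tested) had 0 calls and a median of 0.07. Scn10a, a sodium channel of nociceptors, was at most 0.0618 CPM in any mouse, under the level of 3 counts. Other genes of that list were higher in the mice other than E5386, with Prph at 28.3 to 51.3 CPM, Calca at 14.9 to 22.2 CPM and Trpv1 at 0.216 to 0.340 CPM. Which cells their RNA came from was not tested. The oligodendrocyte list had 0 calls among 14 genes, a median of -0.01 and a summed level from 22760 to 25050 CPM in Ager-deleted and from 22770 to 25470 CPM in control cords. The skeletal muscle list gave 3 calls, all lower in Ager-deleted cords (Myh4, Ckm and Atp2a1), and its score was high in the controls E5386 and E5642. Without E5386 the edgeR exact test called 5 genes of the list, all lower, these 3 among them. The part of E5386 and E5642 together in these calls was not tested. When the edgeR quasi-likelihood fit also held the muscle score, 0 of the 8 genes were called (adjusted p = 0.999 for each). The log2 fold change then moved by over 1.5 times for Prx (-0.56), Cldn19 (-0.53) and Pmp22 (-0.37), and turned for Egr2 (-0.10). The part of sheath content in the values of the 8 genes was not tested.

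The genes whose levels most resembled the 8 across mice were ranked by their Pearson correlation with the score over all 8 mice, as a description. Among the first 10 were Dhh (0.992), Gas2l3 (0.990), Ogn (0.984), Scn7a (0.982), Smtn (0.981), Sbspon (0.977), Dcn (0.976), Sostdc1 (0.975) and Plekha4 (0.971). Over the 7 mice other than E5386 the correlations of these named genes were 0.921 for Dcn to 0.984 for Gas2l3, and 2 genes, Gas2l3 and Dhh, were among the first 10 in both rankings. Over 8 mice 92 genes reached 0.9, of which 36 also did so over 7 mice. Over the 7 mice 285 genes reached 0.9, and the first 10 of that ranking included Hnmt (0.988), Epc2 (0.987), Cisd2 (0.983) and mt-Nd1 (0.982), which are not known as markers of Schwann cells.

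The level of the cord is marked by Hox genes, transcription factors of position along the body axis. Of 4 lumbar Hox genes listed with the markers, 3 were lowest in E5386, among them Hoxd10 at 13.5 CPM against 16.5 to 36.9 CPM, whereas Hoxa10 was at 32.0 CPM against 32.1 to 35.8 CPM. The score of the 8 genes was plotted against 3 more caudal Hox genes, which were chosen after their values were seen. The part of cord level in the values of the 8 genes was not tested.

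**Figure D4:**
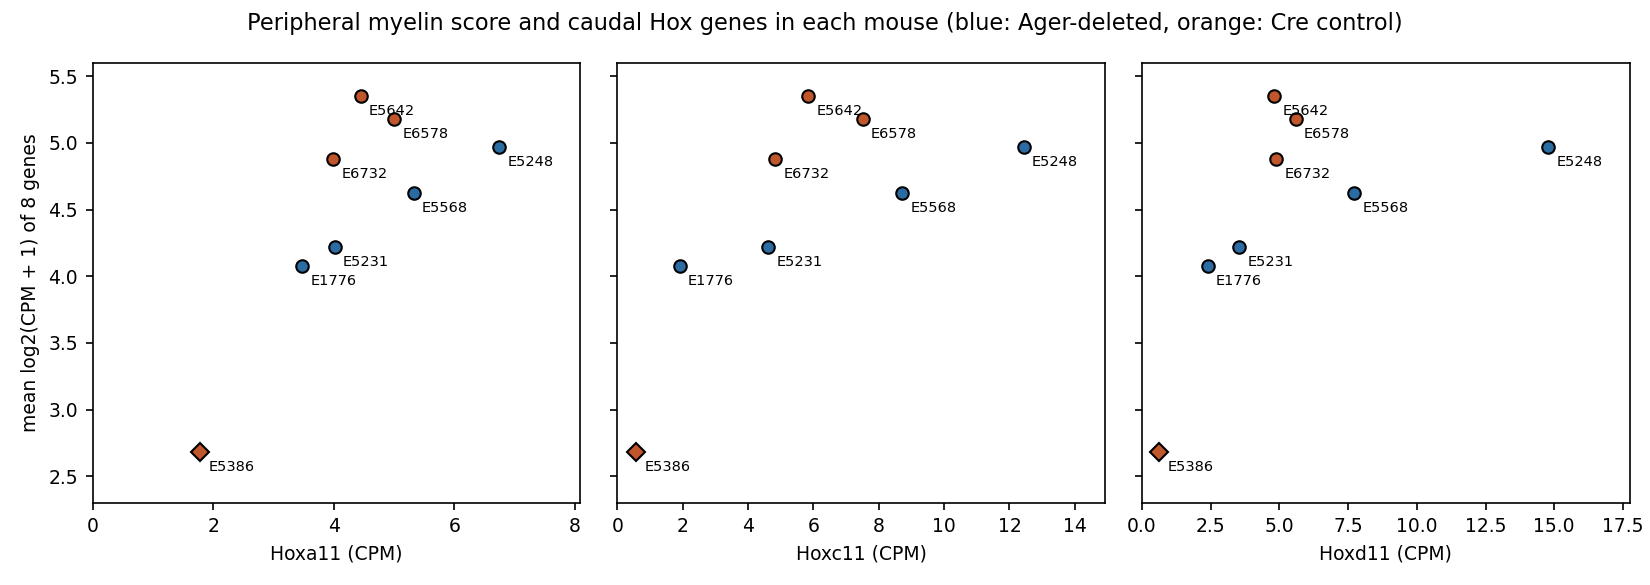
Mean log2(CPM + 1) of the 8 genes against the level of Hoxa11, Hoxc11 and Hoxd11 (CPM, linear axes) in each mouse, with Ager-deleted mice in blue, Cre control mice in orange and E5386 as a diamond. E5386 is lowest on both axes in each panel, with a score of 2.68 and Hoxd11 at 0.629 CPM, and E5248 holds the highest level of each Hox gene, with Hoxd11 at 14.8 CPM.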

How the data were processed

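The deposited raw counts are whole reads per gene. By the submitters' notes and the methods of the study, the authors trimmed reads with Trimmomatic 0.36, aligned them to mm10 with STAR 2.7.3a and counted them over GENCODE genes with featureCounts of Subread 1.6.3. The strand setting is not given in the sources used here. A deposited table of log2 CPM values, made by the authors with edgeR, was used only as a check, and values recomputed from the counts matched it to 4.78e-06 for all 19470 genes. Tests used the counts with edgeR 4.0.16 in R 4.3.3 (exact test and TMM scaling, which the study names, dispersions by estimateDisp, with the dispersion setting of the study not given in the sources used here, filterByExpr at 10 counts, adjusted p under 0.05 over all genes). The edgeR quasi-likelihood test, DESeq2 1.42.0 and limma 3.58.1 with voom were alternatives, as were other scalings, filters and samples. Single genes were tested by exact permutation of log2(CPM + 1) over 70 assignments. Scores average log2(CPM + 1). On simulated data the exact test recovered 200 of 200 genes changed by 1.5 on the log2 scale. It made 14 false calls among 19286 genes. Whether a change of 1.5 would be recovered in the 8 genes, at their own spread between mice, was not tested. No 2 libraries agreed within sampling noise (chi-square per degree of freedom 17.3 to 131 over 28 pairs). The members and the 18 gene lists were chosen with earlier results of these data known. Named genes are the 8, Ager, list genes called or among the smallest 3 p-values of a list, and the 10 most similar genes; others are named after their values were seen, and some genes of the lists are not reported here. Positions, exon lengths and overlaps come from GENCODE M21 on GRCm38, an earlier release than the M25 on which the authors counted, so lengths and overlaps may differ from theirs, and promoters from RefSeq on GRCm38.p6, matched by symbol.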

Additional observations from a re-analysis of the deposited data

Results flagged for a closer look

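Within the 4 controls, E5386 stood apart from the other 3 by more than the 95% limit of Dixon's test (the gap to the nearest mouse over the whole range) for several genes on the log2(CPM + 1) scale. The ratio was 0.929 for Prx, 0.847 for Cldn19 and 0.884 for Gldn, with E5386 the low mouse each time. The same held for the mean scores of other Schwann cell markers (0.923), the repair Schwann cell genes (0.915), the Drp2 complex (0.949) and the relatives of Pmp22 and Cldn19 (0.883). Within the Ager-deleted group, E5248 stood apart for Drp2, as the high mouse (0.851). Among the controls, E6732 stood apart for the liver genes, as the high mouse (0.985). E5386 had already been singled out for its low levels of these genes, so its ratios restate that description and are no further evidence. In all, 52 groups were examined (26 measures in 2 groups each), of which 9 passed the limit. Chance alone sets about 1 in 20 groups apart in this way, and the genes share their mice, so these values are not independent of each other.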

How the results depend on the processing

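No paired analysis was possible because the labels number no replicates across the groups. The count of the 8 genes called was 0 under every alternative that kept E5386, and 0 in the quasi-likelihood test without it. Leaving out each mouse gave 0 to 2, leaving out E5386 and E5642 gave 2, and common and tagwise dispersions without E5386 gave 3 (Pmp2, Gldn and Ncmap). In the lists of other Schwann cell, repair, Egr2, Drp2 and node genes the count went from 0 to 1 without E5386 and E5642, to 2 with common and tagwise dispersions without E5386, and ran from 0 to 1 over single mice left out. Genes called in all, 14 in the main test, were 8 with a filter of 1 CPM, 1 in the quasi-likelihood test (also with the muscle score and without E5386), 78 with common and tagwise dispersions (138 without E5386), 25 with DESeq2, 1 with limma-voom, 48 at an adjusted p of 0.10, 67 without E5386 and E5642, and 3 to 98 over single mice left out. Directions turned for Prx (0.772), Pmp2 (0.0996) and Cldn19 (0.735) under limma-voom. Egr2 turned to -0.0964 with the muscle score, to -0.14 without E5386 and E5642, and to -0.205 in the quasi-likelihood and the common and tagwise fits without E5386, and ran from -0.205 to 0.142 over single mice left out (-0.187 without E5248). The causes were not tested. Over single mice left out, the log2 fold change ran from -0.785 to -0.0832 for Prx and from -1.62 to -0.86 for Pmp2. It ran from -0.518 to -0.0422 for Pmp22, from -0.959 to -0.188 for Ncmap and from -0.458 to -0.0641 for Drp2. The range was -0.755 to -0.0425 for Cldn19 and -0.851 to -0.418 for Gldn. Each of these was smallest in size without E5642. The difference in score, -0.0484, ran from -0.663 without E5386 to 0.228 without E5642. Alternatives without E5386 in the other tests were chosen after seeing the data. Depth limits Pmp2, whose levels of 0 to 1.79 CPM lie closest to the level of 3 counts.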

Other observations

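The caudal Hox genes, which mark position along the cord, differed in the same mouse that held the least peripheral myelin RNA. They were chosen after their values were seen. From low to high, control cords held 0.629 CPM in E5386, 4.82 in E5642, 4.89 in E6732 and 5.59 in E6578 of Hoxd11, and Ager-deleted cords held 2.39 CPM in E1776, 3.53 in E5231, 7.73 in E5568 and 14.8 in E5248. Hoxc11 was at 0.574 CPM in E5386 and at 1.91 to 12.4 CPM in the other mice, and Hoxa11 was at 1.78 CPM in E5386 and at 3.48 to 6.74 CPM in the others. Each was lowest in E5386 and highest in E5248. Within the Ager-deleted group each ran in the order E1776, E5231, E5568 and E5248, which was also the order of the mean level of the 8 genes. Across the other controls the order differed, since E5642 held the highest score of the 8 genes at 5.35 but the least Hoxd11 of these 3. Whether the level of the cord that was dissected differed between mice was not tested.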
